A study of Mus musculus with 6 samples.

Results

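Klf6, Klf2, Klf4, Egr1 and Zfp36 are 5 zinc finger genes that cells switch on quickly after stimulation, described here across mouse blood stem and progenitor cells. They were taken by symbol from 23538 genes, and all 5 were found in each of the 12 expression tables. The list was selected on an earlier result of these same data: Klf6 was one of 5 genes of 6444 tested (0.0776%) that differed between genotypes on average over the 6 populations, and the other members were added as its relatives. Differences between genotypes are therefore given as values, with no test, while differences between populations and the change of the genotype difference from one population to the next come from other contrasts and were tested.

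The animals under study were Mof -/+, which carry 1 working copy of Mof (gene symbol Kat8), a histone H4 lysine acetyltransferase, and their controls were wild type. The labels give no age, sex or strain. From each genotype, bone marrow was sorted into HSC, MPP2, MPP3 and MPP4, the stem and multipotent cells of the lineage-negative, Sca-1-positive, cKit-positive (LSK) gate, and into CMP and MEP, which are Sca-1-negative committed myeloid and megakaryocyte-erythroid progenitors. HSC were gated as CD34-negative, Flt3-negative, CD48-negative and CD150-positive. The MPP gates shared CD34 and CD48, with CD150 added for MPP2 and Flt3 for MPP4. CMP were CD34-positive with low CD16/32, and MEP lacked both. Each of the 12 groups has 3 libraries of 15 cells, 36 libraries in all. Nothing in the labels says whether the 3 came from separate animals, so every p-value measures only the spread between these libraries. The 6 pools listed in the labels each hold 1 genotype and 1 part of the hierarchy, so that pool cannot be told apart from genotype, nor LSK cells from committed progenitors.

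KLF6, KLF2 and KLF4 are Krüppel-like factors, which bind GC-rich and CACCC sequences through 3 zinc fingers at the C-terminus. EGR1 also binds GC-rich sites through zinc fingers and is the textbook immediate early factor: its transcription follows ERK signalling through serum response factor within minutes and needs no new protein. ZFP36 (tristetraprolin) has a different kind of zinc finger that binds AU-rich elements in messenger RNAs and speeds their decay. In blood, KLF2 is known for quiescence and trafficking of lymphocytes, KLF4 for monocyte differentiation and EGR1 for holding stem cells in the marrow. Genes of this class are also known to be switched on while cells are dissociated and sorted.

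The libraries were shallow and uneven. Their totals ran between 1577 and 123765 counts (median 41227), so 1 count, given in CPM (counts scaled to the total of their library), was worth 634.1 CPM in the smallest library and 8.08 CPM in the largest. Below 15000 counts were 6 libraries, namely Mof -/+ HSC 2, all 3 of wild-type MPP2, and wild-type MPP3 1 and 2. Kat8 itself was too rare to check the genotype: it had 11 counts in the 18 Mof -/+ libraries (pooled level 9.86 CPM) and 12 counts in the 18 wild-type libraries (18.3 CPM). Marker genes followed most sorting labels of the committed cells. Summed erythroid and megakaryocytic markers reached 3089 to 3721 CPM in Mof -/+ MEP and 2457 to 3699 CPM in wild-type MEP, against 509 to 1525 CPM in Mof -/+ CMP and 1043 to 1526 CPM in wild-type CMP. Summed myeloid markers were 2772 to 6464 CPM in Mof -/+ CMP and 2799 to 2926 CPM in wild-type CMP, against 626 to 933 CPM in Mof -/+ MEP and 106 to 2374 CPM in wild-type MEP. One LSK library, Mof -/+ MPP4 3, held 6512 CPM of erythroid and megakaryocytic markers, above every MEP library. Stem cell markers were 1176 to 1444 CPM in Mof -/+ HSC, but 32.7 to 1719 CPM in wild-type HSC. The low end was wild-type HSC 3 (30569 counts). It held 3075 CPM of mature B cell markers, against 68.8 and 342 CPM in wild-type HSC 1 and 2. Its monocyte, macrophage and dendritic markers summed to 2061 CPM, against 0 and 228 CPM. The part of this library's makeup in the values of the 5 genes was not tested. In MPP3 stem cell markers were 768 to 1076 CPM in Mof -/+ and 0 to 384 CPM in wild type, with none in the shallow wild-type libraries 1 and 2. The part of this MPP3 difference in the values of the 5 genes was not tested. Summed lymphoid-primed markers were 683 to 4393 CPM in Mof -/+ MPP4 and 333 to 4674 CPM in wild-type MPP4. Mature neutrophil markers stood above 10000 CPM in 7 libraries, which were Mof -/+ MEP 3, wild-type MEP 2 and 3, wild-type MPP2 1, wild-type MPP3 1 and 3, and wild-type MPP4 3. In sorts of this kind, fewer cells that express a gene and less RNA per cell cannot be told apart.

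Klf6 was the most evenly detected of the 5, with at least 1 count in all 36 libraries and 544 counts in total (255 in Mof -/+ and 289 in wild type). The gene lies on mouse chromosome 13, from 5861489 to 5870393 on the plus strand (GRCm38.p6, RefSeq), and codes for a transcription factor linked to stress and injury responses. The 250 bases upstream of its start, chr13:5861239-5861488, plus strand, are shown because Klf6 carries the main result. Unlike the window of Zfp36 below, they hold no CArG box and no EGR site. Both windows hold a GC box, GGGCGG on either strand, 63 to 58 bases before the start. Capitals mark CCAAT boxes on either strand and an E-box:
Klf6: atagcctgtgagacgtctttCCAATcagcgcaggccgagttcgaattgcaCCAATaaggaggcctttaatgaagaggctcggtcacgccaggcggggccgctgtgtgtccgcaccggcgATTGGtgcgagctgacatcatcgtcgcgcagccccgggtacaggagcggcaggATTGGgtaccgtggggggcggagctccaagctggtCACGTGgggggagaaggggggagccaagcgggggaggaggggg
The window holds 4 CCAAT motifs, an element found in 33.8% of the 32851 promoter windows of this length in the table, and 1 CACGTG, found in 6.02%. Motifs were searched on both strands, and a match is a description of letters, not evidence that a factor binds.

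Klf6 was highest in HSC and MPP3 in both genotypes and lowest in the CMP and MEP of Mof -/+ mice. In wild type the populations lay closer together, and the pooled level in CMP (447 CPM) was no lower than in MPP2 (383 CPM) or MPP4 (445 CPM). Its level was 251, 634 and 1398 CPM in the Mof -/+ HSC libraries, where the middle value rests on 1 count, and 894, 570 and 491 CPM in wild-type HSC. In MPP3 it was 919, 613 and 531 CPM in Mof -/+ and 685, 724 and 1152 CPM in wild type. In MPP2 it was 151, 312 and 410 CPM in Mof -/+ and 484, 324 and 354 CPM in wild type. HSC and MPP3 thus held the highest Klf6 levels, and the genotypes overlapped in all 3 populations.

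The committed progenitors looked different. In CMP, Klf6 was 32.5, 22.4 and 32.3 CPM in Mof -/+ against 682, 290 and 432 CPM in wild type, from 2, 2 and 4 counts against 38, 22 and 33. MEP had 38.9, 26.6 and 79.8 CPM in Mof -/+ and 335, 257 and 205 CPM in wild type, once the shifted gene names of the wild-type MEP table were put back in order. MPP4, the lymphoid-primed LSK population, had 67.5, 71.8 and 220 CPM in Mof -/+ and 418, 446 and 499 CPM in wild type. In these 3 populations every Mof -/+ library was below every wild-type library.

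For pooled counts, the Mof -/+ level of Klf6 in CMP was 29.1 CPM (95% Poisson interval 12.6 to 57.4) and the wild-type level was 447 CPM (361 to 548), a ratio of 0.0651. The intervals cover counting error only. The same ratio was 0.198 in MEP and 0.219 in MPP4, against 0.912 in HSC, 0.755 in MPP2 and 0.669 in MPP3. Of the 6444 genes tested, 4.98% had every Mof -/+ library below every wild-type library in CMP, 5.37% in MEP and 3.88% in MPP4. Mature neutrophil markers summed to 550 to 735 CPM in Mof -/+ CMP and 680 to 6892 CPM in wild-type CMP. Without the 7 libraries rich in these markers, none of which is a CMP, the average genotype value of Klf6 was -1.34. That fit kept only library 2 of wild-type MPP3 and library 1 of wild-type MEP. The part of these markers in the Klf6 difference was not tested.

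**Figure D1:**
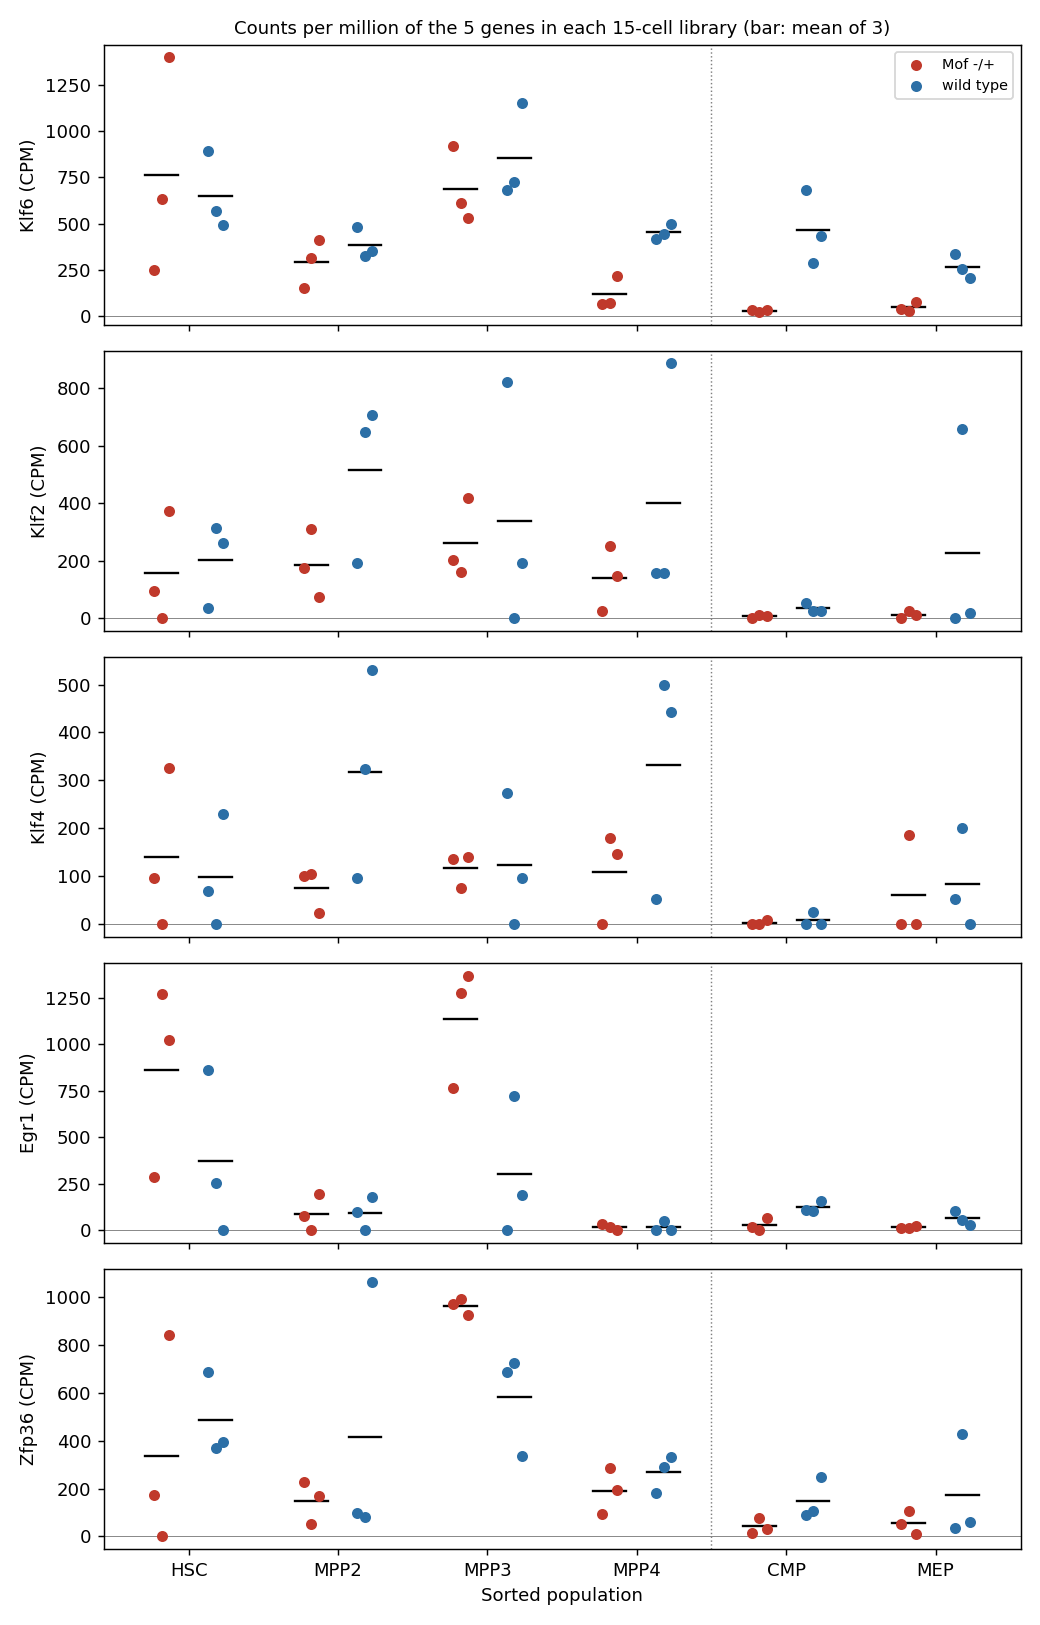
Level of each of the 5 genes (CPM, linear axis with a scale of its own) in every library, by sorted population, with Mof -/+ libraries in red left of wild-type libraries in blue and a bar at the mean of 3. The Klf6 points of Mof -/+ CMP lie between 22.4 and 32.5 CPM, below all wild-type CMP points, and Mof -/+ MPP3 stands out in the Egr1 and Zfp36 panels.

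Across all 36 libraries Klf6 differed between populations (limma F test, adjusted p = 0.000256). This test called 4.14% of 6501 genes. Ordered by its mean on the log2(count at a common total + 1) scale, Klf6 ran MPP3 (4.99), HSC (4.73), MPP2 (3.83), MPP4 (3.36), CMP (2.70) and MEP (2.54). No neighbours in that order differed beyond their 95% interval. The widest step, HSC over MPP2, was 0.90 with an interval of -0.05 to 1.85.

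Klf6 was 1.61 ± 0.29 (SE) higher on that log2 scale in the 4 LSK populations than in CMP and MEP (limma, adjusted p = 0.000186). The median of all genes was -0.26 in the same contrast, and 7.83% were called, 111 of them higher and 398 lower in LSK cells. By genotype, it was 2.57 in Mof -/+ (95% interval 1.75 to 3.39) and 0.65 in wild type (-0.17 to 1.48), so in wild type alone the interval included 0. This pair of estimates was not compared by a test of its own, beyond the interaction test below.

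Whether the genotype difference of Klf6 changed with the population depended on the test. As log2(deposited value + 1), the Mof -/+ minus wild-type difference was -3.48 in CMP, -2.20 in MEP, -1.83 in MPP4, -0.57 in HSC, -0.27 in MPP2 and 0.07 in MPP3, each with an SE of 0.60. The interaction of genotype with population did not pass the threshold in limma (adjusted p = 0.16, where 0.031% of genes were called). With edgeR's quasi-likelihood test on the recovered counts it did (adjusted p = 0.00771, where 1.1% of 1633 genes were called). Klf6 was the only one of the 5 genes called in that edgeR test. The average difference of -1.38 ± 0.24 (SE) is the value that chose the gene and is given as a description. By edgeR, which called 1.9% of genes in this average contrast, the value was -1.43.

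**Figure D2:**
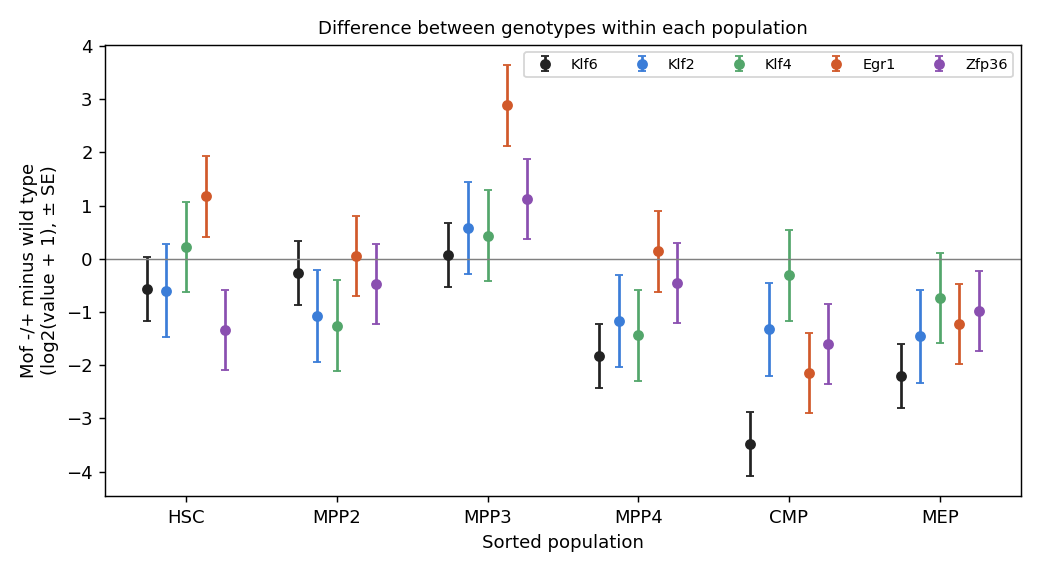
Mof -/+ minus wild-type difference of each gene in each population, as log2(deposited value + 1) with its standard error, 3 libraries per group. Klf6 lies lowest in CMP at -3.48 and near 0 in MPP3 at 0.07, where Egr1 reaches 2.88.

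On the mean over populations, Klf2 and Klf4 followed the same division between LSK and committed cells in both genotypes. Klf2 lies on chromosome 8 (72319062 to 72321654) and had 112 counts in Mof -/+ and 108 in wild type, in 31 of 36 libraries. It was 0, 11.2 and 8.08 CPM in Mof -/+ CMP and 53.9, 26.4 and 26.2 CPM in wild-type CMP. In MPP2 it was 176, 312 and 72.4 CPM in Mof -/+ and 194, 648 and 708 CPM in wild type. CMP was the single population in which all Mof -/+ libraries lay below all wild-type ones, with 2 counts against 7. There the same held for 4.98% of the genes tested.

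Klf2 was 2.07 ± 0.42 (SE) higher on the log2 scale in LSK than in committed populations (limma, adjusted p = 0.000771), the widest gap among the 5. Its F test over populations passed as well (limma, adjusted p = 0.0153), but not with a pseudocount of 5 (0.0681) or with no filter on low values (0.113). It was 2.31 in Mof -/+ (95% interval 1.13 to 3.49) and 1.82 in wild type (0.65 to 3.00). Single wild-type libraries reached 887 CPM in MPP4 3, 822 CPM in MPP3 1, 708 CPM in MPP2 3 and 657 CPM in MEP 2, beside 0 and 19.5 CPM in the other wild-type MEP libraries. Of these 4, all but MPP2 3 were rich in neutrophil markers, and all 4 held 2738 to 5710 CPM of monocyte, macrophage and dendritic markers and 1996 to 2745 CPM of B cell markers. Their part in the Klf2 values was not tested. Without the 7 neutrophil-rich libraries the LSK difference of Klf2 was 2.17, while its average Mof -/+ minus wild-type value was -0.06 in place of -0.84. That fit kept only library 2 of wild-type MPP3 and library 1 of wild-type MEP, both with 0 counts of Klf2.

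Klf4, on chromosome 4 (55527137 to 55532475, minus strand), was the least detected, with 74 counts in Mof -/+ and 65 in wild type, and no count in 11 libraries. In CMP it was close to absent in both genotypes, with 1 count in Mof -/+ and 2 in wild type. MEP had 0, 186 and 0 CPM in Mof -/+, all from 14 counts in 1 library, and 52.8, 200 and 0 CPM in wild type. In the order of its log2 means, HSC stood 0.58 above MEP (95% interval -0.73 to 1.90). Pooled, Klf4 was 58.3 CPM in Mof -/+ MEP, beside 69.7 in MPP2, 74.3 in MPP4, 114 in MPP3 and 160 in HSC of that genotype. In MPP4 it was 0, 180 and 146 CPM in Mof -/+ and 52.2, 498 and 444 CPM in wild type, and in MPP2 it was 101, 104 and 24.1 CPM in Mof -/+ and 96.8, 324 and 531 CPM in wild type. The genotypes overlapped in all 6 populations.

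Klf4 was 1.61 ± 0.40 (SE) higher in LSK than in committed populations (limma, adjusted p = 0.00813), by 1.52 in Mof -/+ and 1.70 in wild type. The call was lost without the neutrophil-rich libraries (1.25), in the fit that kept only library 2 of wild-type MPP3 and library 1 of wild-type MEP. The F test over populations missed the threshold in limma (adjusted p = 0.0544) and passed it in edgeR (adjusted p = 0.0222), which called 29.3% of its genes and all 5 members. Klf2, Klf4 and Zfp36 varied alike among single libraries. Over 29 libraries, taken as deviations from their group mean, log levels correlated at 0.533 for Klf2 with Klf4, 0.528 for Klf4 with Zfp36 and 0.514 for Klf2 with Zfp36. Over the 12 pooled groups these pairs were at 0.859, 0.651 and 0.839. The libraries share their depth in both values. Of the 10 pairs computed, the others ran within groups between -0.33 (Klf2 with Egr1) and 0.28 (Klf6 with Egr1). Klf6 was at 0.06 with Klf2, 0.068 with Klf4 and 0.118 with Zfp36.

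Egr1, like Klf6, was highest in MPP3 and HSC. It lies on chromosome 18 (34861207 to 34864956) and had 313 counts in Mof -/+ and 82 in wild type, of which 245 came from Mof -/+ MPP3 alone. In HSC it was 289, 1268 and 1020 CPM in Mof -/+, the middle value from 2 counts, and 860, 256 and 0 CPM in wild type. The 0 is wild-type HSC 3, the library with few stem cell markers. Egr1 was also measured in MPP3. In MPP3 it was 766, 1276 and 1369 CPM in Mof -/+ and 0, 724 and 192 CPM in wild type, and the wild-type values rest on 0, 2 and 4 counts. Every Mof -/+ MPP3 library lay above every wild-type one, but so it did for 21.6% of all genes tested there, the 2 shallowest wild-type libraries of that group holding 2764 and 7304 counts.

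In the committed progenitors the order was turned round. Egr1 was 16.2, 0 and 64.6 CPM in Mof -/+ CMP and 108, 106 and 157 CPM in wild-type CMP. In MEP it was 13.0, 13.3 and 22.8 CPM in Mof -/+ and 106, 57.1 and 29.3 CPM in wild type. In both, all Mof -/+ libraries lay below all wild-type ones, from 9 against 26 counts in CMP and 4 against 11 in MEP. The same held for 4.98% of the genes tested in CMP and 5.37% in MEP. MPP4 was nearly empty of Egr1 in both genotypes, with 5 counts in Mof -/+ and 2 in wild type.

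Egr1 differed between populations (limma F test, adjusted p = 0.000166). In its order of log2 means, HSC stood 2.17 above MPP2 (95% interval 0.86 to 3.48), and no other neighbours differed beyond their interval. The LSK populations were 1.12 ± 0.40 (SE) above the committed ones, which missed the threshold in limma (adjusted p = 0.0696) and passed it in edgeR (adjusted p = 0.0142, with 29.6% of genes called). In limma the contrast passed with a pseudocount of 5 (adjusted p = 0.0153), but not with no filter (0.173) or on the deposited scale (0.874). Leaving out 1 library, it passed in 5 of 36 fits. The value was 1.41 without libraries under 15000 counts, a fit in which MPP2 left the contrast, and 1.26 without neutrophil-rich libraries. Without Mof -/+ MPP3, which took MPP3 of both genotypes out of the contrast, the value was 0.61 (limma, adjusted p = 0.43). By genotype it was 2.43 in Mof -/+ (1.29 to 3.56) and -0.19 in wild type (-1.33 to 0.94). Averaged over populations, Mof -/+ minus wild type was 0.15, since 2.88 in MPP3 and 1.17 in HSC stood against -2.14 in CMP and -1.22 in MEP. The interaction missed the threshold (limma, adjusted p = 0.117). Leave-one-out fits aside, it passed in 1 alternative, a pseudocount of 5 in place of 1 (limma, adjusted p = 0.0133). In the others that kept more than 1 library per group, adjusted p ran between 0.231 (edgeR with TMM) and 0.927 (limma without Mof -/+ MPP3). Leaving out 1 library, it ran between 0.0486 and 0.315 in limma, past the threshold in 2 of 36 fits.

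Zfp36 lies on chromosome 7 (28376784 to 28379228, minus strand), where GENCODE M21 places the antisense gene Gm44710 over it. No source used here says whether the authors counted by strand, so reads of both may be joined. Its upstream window, chr7:28379229-28379478, minus strand, is shown because it is the one promoter among those of Klf6, Klf2, Klf4 and Zfp36 with a CArG box, the sequence bound by serum response factor. Capitals mark the CArG box near the start and an EGR site, GCGGGGGCG, further upstream:
Zfp36: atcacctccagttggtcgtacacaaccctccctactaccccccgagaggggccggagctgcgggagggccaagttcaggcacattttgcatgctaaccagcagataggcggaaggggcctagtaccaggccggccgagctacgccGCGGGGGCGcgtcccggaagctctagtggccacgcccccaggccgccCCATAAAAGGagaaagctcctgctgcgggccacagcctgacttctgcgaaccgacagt
The CArG box is 58 to 49 bases before the start and the EGR site 105 to 97. A CArG box stood in 1.47% of all windows and an EGR site in 2.57%. The promoters of Klf2 and Klf4 each held an EGR site as well, and the Klf6 window did not. GC-rich windows hold such letters more readily, which was not corrected for.

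Zfp36 also carries in its own 3′ end the element its protein binds. The tail of transcript Zfp36-201 (774 bases) held TATTTAT, which is UAUUUAU in the RNA, 3 times, once within the longer TTATTTATT. That of Klf6-201 (3111 bases) held TATTTAT 2 times and that of Klf2-201 (737 bases) 1 time, while Klf4-201 and Egr1-201 held none. One site of each is shown with capitals on the element:
Zfp36: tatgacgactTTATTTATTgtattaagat
Klf6: ctacgtctctTATTTATgccttgaggact
Klf2: aacagactgcTATTTATtggaccttagga
Of 18042 genes with at least 100 bases after the stop codon, 25.5% held TATTTAT and 6.88% held TTATTTATT.

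Zfp36 was highest in MPP3, at 970, 988 and 922 CPM in Mof -/+ and 685, 724 and 336 CPM in wild type, again with no overlap. The wild-type values rest on 5, 2 and 7 counts, and 21.6% of all genes tested lay wholly above in Mof -/+ MPP3. The 202 counts of Mof -/+ MPP3 are most of the 306 counts of that genotype. In CMP Zfp36 was 16.2, 78.5 and 32.3 CPM in Mof -/+ and 89.8, 106 and 249 CPM in wild type, with all Mof -/+ libraries lower. The same held for 4.98% of the genes tested. MEP, MPP2, MPP4 and HSC overlapped, and wild-type MPP2 alone spanned 81.0 to 1062 CPM.

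Zfp36 differed between populations (limma F test, adjusted p = 0.00479), with MPP3 standing 1.43 above HSC on the log2 scale (95% interval 0.21 to 2.64) as the one step beyond its interval. It was 1.68 ± 0.37 (SE) higher in LSK than in committed populations (limma, adjusted p = 0.00264), by 1.999 in Mof -/+ and 1.37 in wild type. Both calls were lost in a fit without Mof -/+ MPP3, in which wild-type MPP3 also left the contrasts. There the limma F test gave an adjusted p of 0.302 and the LSK difference was 1.26 (limma, adjusted p = 0.052). Mof -/+ minus wild type was 1.12 in MPP3 and -1.61 in CMP, and the interaction missed the threshold (limma, adjusted p = 0.679).

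**Figure D3:**
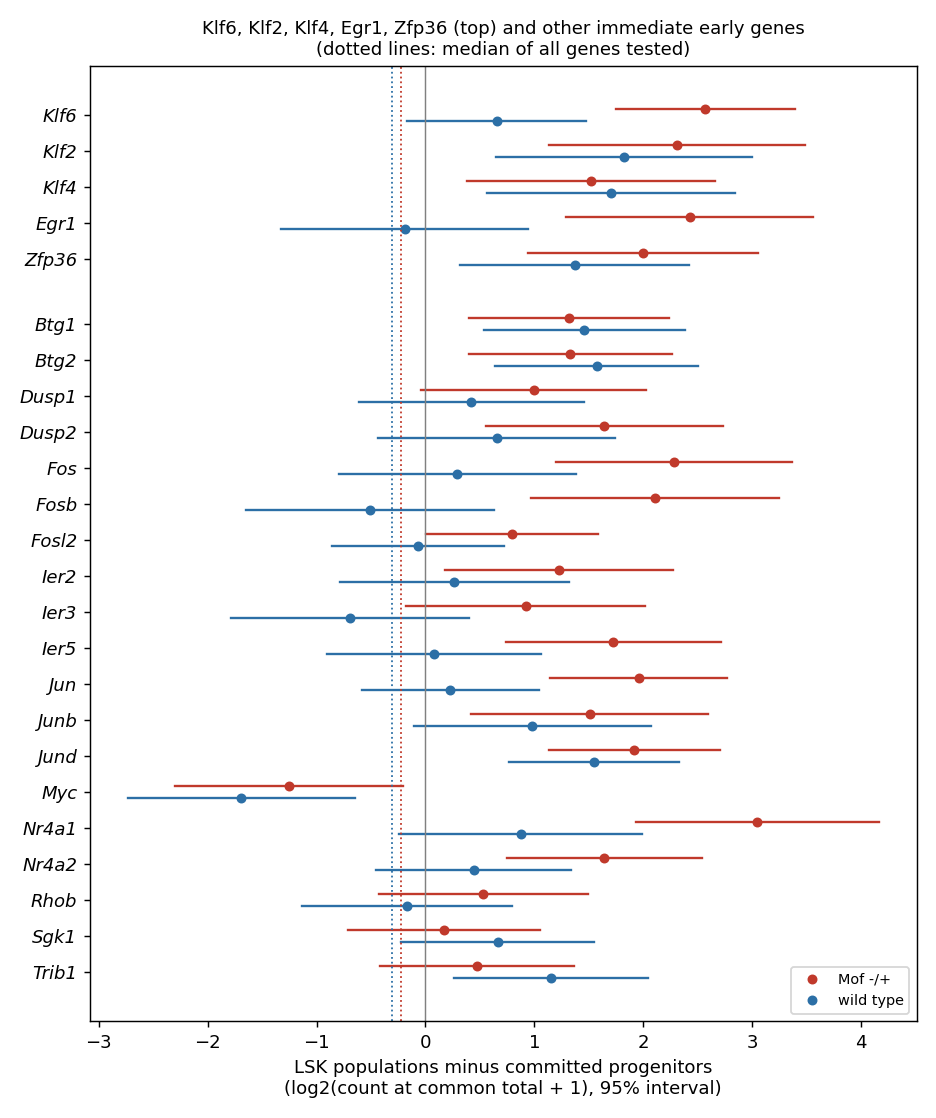
Difference between LSK populations and committed progenitors (log2(count at a common total + 1)) with its 95% interval, in Mof -/+ (red, upper of each pair) and wild type (blue), for the 5 genes at the top and 19 other immediate early genes below. For Klf6 the estimate is 2.57 in Mof -/+ and 0.65 in wild type, while for Klf4 the genotypes give 1.52 and 1.70.

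The 5 genes whose pattern was most like that of Klf6 included Fos and Jun by both measures used. Over the 12 pooled groups, Pearson's r of log2(CPM + 25) with Klf6 was highest for Fos (0.926), Jun (0.899), Ankhd1 (0.879), Bptf (0.868) and Zfp36 (0.866), among 1638 genes with at least 200 counts. Over the 30 libraries of at least 15000 counts, the first were Jund (0.863), Jun (0.840), Fos (0.834), H3f3b (0.799) and 2900060B14Rik (0.705). FOS, JUN and JUND are subunits of the AP-1 transcription factor. Egr1 was at 0.712 over groups, behind Klf2 at 0.773, and Klf4 was at 0.537. These values describe the ranking and carry no test, since libraries of a group share their pool. As deviations from the group mean over 29 libraries, Klf6 was at only 0.118 with Zfp36, 0.06 with Klf2, 0.068 with Klf4 and 0.28 with Egr1.

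Of a list of 26 other immediate early genes, 19 were tested in the LSK against committed contrast and 9 passed. Among all genes tested there, 7.83% were called. Higher in LSK were Nr4a1 (1.96), Jund (1.73), Btg2 (1.45), Btg1 (1.39), Fos (1.29), Junb (1.25), Jun (1.09) and Nr4a2 (1.04), in log2 (limma, adjusted p between 2.17e-05 and 0.0343). Myc was lower (-1.47). The median over the 19 was 0.90, against -0.26 for all genes. By genotype the median was 1.33 in Mof -/+ and 0.42 in wild type, against -0.23 and -0.31 for all genes. Of the 19, 15 had the larger estimate in Mof -/+. The share of all genes with the larger estimate in Mof -/+ was not computed. This split between genotypes was also not computed without Mof -/+ MPP3. None of the 17 tested passed in the average genotype contrast in limma, where Fos was at -1.05 and Jund at -0.97; edgeR called Jund (-0.88, adjusted p = 0.0124).

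The summed level of these early genes was lower in the same Mof -/+ progenitors in which Klf6 was lower. It was 1541 to 1784 CPM in Mof -/+ CMP against 4278 to 4567 CPM in wild-type CMP, 1358 to 1596 CPM in Mof -/+ MEP against 2276 to 4686 CPM in wild-type MEP, and 1855 to 3033 CPM in Mof -/+ MPP4 against 3408 to 5100 CPM in wild-type MPP4. In MPP3 it was 13670 to 15690 CPM in Mof -/+ and 6709 to 11220 CPM in wild type. The part of these genes in the Klf6 difference was not tested.

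Klf6 was also set against these genes within each library. Per 1000 counts of the other immediate early genes, Klf6 had 12.6 to 21.1 counts in Mof -/+ CMP and 67.9 to 154 in wild-type CMP. It had 19.6 to 50 in Mof -/+ MEP against 54.9 to 133 in wild-type MEP, and 23.7 to 73.2 in Mof -/+ MPP4 against 97.8 to 131 in wild-type MPP4. MPP3 had 37.2 to 67.3 in Mof -/+ and 64.5 to 118 in wild type. The share of all genes whose ratio separates the genotypes in this way was not computed. For Egr1 the same ratio overlapped between genotypes in CMP (0 to 36.4 in Mof -/+ and 24.3 to 34.4 in wild type) and in MEP (8.13 to 14.3 and 12.2 to 42.0).

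**Figure D4:**
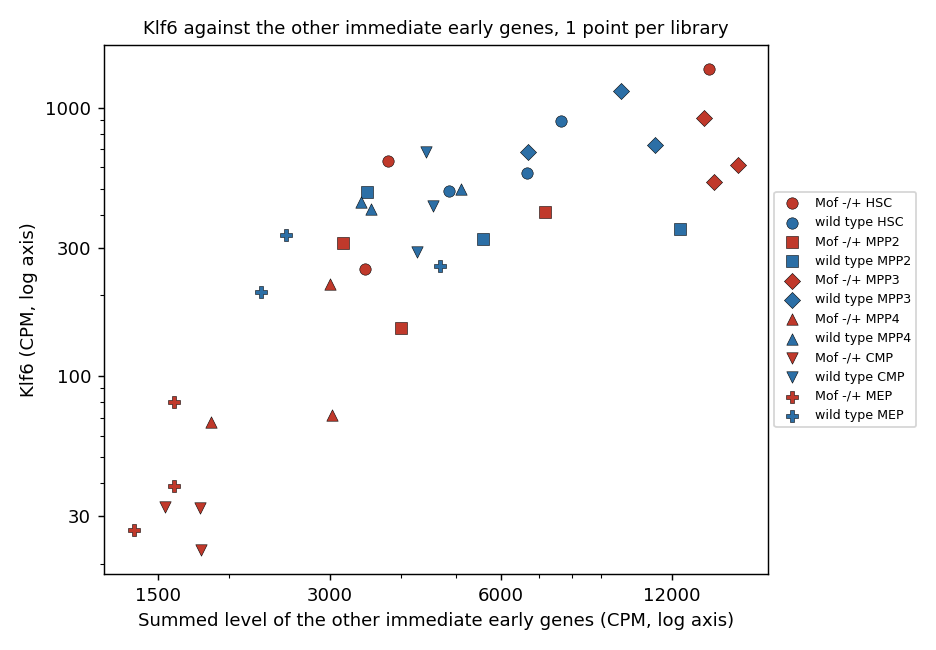
Klf6 (CPM, log axis) against the summed level of the other immediate early genes (CPM, log axis), 1 point per library, red for Mof -/+ and blue for wild type, with a symbol for each population. Mof -/+ CMP and MEP fill the lower left corner, at 22.4 to 79.8 CPM of Klf6, and MPP3 the upper right.

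Among relatives of the 5 genes, Klf1 alone was called between LSK and committed cells in limma. Of 12 tested KLF and SP genes, 4 passed between LSK and committed cells, Klf2, Klf4 and Klf6 higher and Klf1, the erythroid Krüppel-like factor, lower (-1.77 ± 0.30 SE, limma, adjusted p = 5.98e-05). The family median was 0.12. Klf13 (-0.09), Sp1 (-0.35) and Sp3 (0.20) were measured with more counts than Klf2 and were not called. Of the ZFP36 family, Zfp36l1 stood at 0.91 in limma (adjusted p = 0.0988), was called in edgeR (1.35, adjusted p = 8.8e-05), and Zfp36l2 was at -0.13; in the average genotype contrast Zfp36l1 was at -0.94 in limma (not called) and at -1.07 in edgeR (adjusted p = 0.00665). Egr2, Egr3 and Egr4 had no count in any library, and the corepressor gene Nab1 was at 0.01.

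Of genes upstream and downstream of the factors, 1 was called between LSK and committed cells in limma. None of 10 tested genes of the SRF, CREB and ERK inputs was called, among them Srf (-0.16) and Creb1 (-0.03), although Mapk3 came near (-0.84, adjusted p = 0.063). Among 4 tested KLF2 target genes, S1pr1, the receptor that lets lymphocytes leave tissues, was higher in LSK cells (1.04 ± 0.30 SE, limma, adjusted p = 0.0229). No EGR1 target among 4 tested, such as Cdkn1a (0.54), and no ZFP36 target among 3 tested, such as Ier3 (0.12), was called. The median over the EGR1 targets was 0.08 and over the ZFP36 targets 0.17. In the average genotype contrast no gene of these 4 lists was called in limma.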

How the data were processed

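RNA of 15-cell sorts was made into libraries with CEL-Seq2, which reads transcript 3′ ends, per the labels' protocols. The submitters' processing notes name BWA 0.6.2-r126 and the build mm10. No source used here names the counter, the annotation or the handling of molecular identifiers. Each deposited value is a signal, namely a count that the authors divided by a size factor of its library: 100% of the values came out whole when divided by the smallest in their column (within 0.01 counts). CPM leave out the 92 spike-in transcripts. Row names of the wild-type MEP table were taken by position from the wild-type HSC table, which raised the rank correlation with wild-type CMP over genes to 0.905, against 0.352 as deposited. This bears on every wild-type MEP value.

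The main test was limma 3.58.1 (R 4.3.3) with an intensity trend on log2(value + 1) over all 36 libraries, 1 coefficient per group, 24 residual degrees of freedom, genes with a mean of at least 1 and Benjamini-Hochberg adjustment at 0.05. Population contrasts used counts rescaled to a common total of 41227, since the deposited factors put each population on a scale of its own. Within a population that scale did not hold for every library. In Mof -/+ HSC 2 (1577 counts) 1 count was worth a deposited 4.38, against 0.99 in HSC 3 (21466 counts). For wild-type MPP3 2 (2764 counts) it was 4.73, against 1.16 in MPP3 3 (20839 counts). Both shallow libraries thus stayed low in deposited total. On the common total the average genotype value of Klf6 was -1.31. Genotype contrasts used deposited values. edgeR 4.0.16 (quasi-likelihood, TMM or RLE) on the recovered counts was an alternative, with its default filter (1633 genes). Only the limma fits, and not edgeR, were run on simulated counts. These were scaled to a common total also for the genotype contrasts, and the outcome is not reported here. Log2 differences understate the change of low genes. The members, gene lists and the rule for named genes (all members, the 5 genes most like Klf6, and per list those called or otherwise the 3 with most counts) were chosen with earlier results of these data known. Promoter windows are from RefSeq (GRCm38.p6), with 4 of 5 members matched, and 3′ ends from GENCODE M21. Some genes that the naming rule gives are not reported here.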

Additional observations from a re-analysis of the deposited data

Results flagged for a closer look

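Klf6 differed between genotypes by an amount that changed with the population in edgeR's quasi-likelihood test of the interaction (adjusted p = 0.00771), and not in limma (adjusted p = 0.16). The difference was -3.48 in CMP and 0.07 in MPP3 on the log2 scale.

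Egr1 lay in opposite directions in different populations. All 3 Mof -/+ libraries were above all 3 wild-type libraries in MPP3 (2.88 in log2) and below them in CMP (-2.14) and MEP (-1.22). Zfp36 did the same in MPP3 (1.12) and CMP (-1.61). Of all genes tested, 21.6% lay wholly above in Mof -/+ MPP3, 4.98% wholly below in CMP and 5.37% in MEP. The difference between these population pairs was not tested by itself; the interaction over all 6 populations missed the threshold for both genes in limma (adjusted p = 0.117 for Egr1 and 0.679 for Zfp36). Groups of 3 are too small to be searched for single outlying libraries.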

How the results depend on the processing

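The average genotype value of Klf6, which chose the gene, ran between -1.51 and -1.30 over the 36 fits that left out 1 library, and is a description only. On the deposited scale, which populations do not share and which moves the median of all genes between LSK and committed cells to -1.18, Klf6 missed the threshold in the F test (adjusted p = 0.0621) and in the LSK contrast (0.24, adjusted p = 0.374), and 5710 and 5695 genes were called. The Klf6 interaction passed in edgeR with TMM (adjusted p = 0.00771) and RLE (0.0191), with a pseudocount of 5 (0.0362) and without neutrophil-rich libraries (0.022), but not with no filter (0.1), on the common total (0.353), without libraries under 15000 counts (0.0917) or without Mof -/+ MPP3 (0.512). Leaving out 1 library, its adjusted p ran between 0.0237 and 0.302, past the threshold in 2 of 36 fits. Zfp36 missed the threshold in the LSK contrast on the deposited scale (0.49, adjusted p = 0.146). The alternatives without Mof -/+ MPP3 and without neutrophil-rich libraries were chosen after seeing the data.

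In the average genotype contrast 5 genes were called, against 31 (TMM), 25 (RLE), 2 (without libraries under 15000 counts) and 23 (without neutrophil-rich libraries), and 4 to 43 in leave-one-out fits. In the interaction 2 genes were called, against 17 (pseudocount of 5), 29 (no filter), 18 (TMM), 14 (RLE), 1 (common total), 19 (without shallow libraries), 0 (without Mof -/+ MPP3) and 124 (without neutrophil-rich libraries), and 1 to 27 leaving out 1 library. In the F test 269 were called, against 171 (no filter), 479 (TMM), 496 (RLE), 673 (without shallow libraries), 156 (without Mof -/+ MPP3) and 697 (without neutrophil-rich libraries), and 183 to 492 leaving out 1, where the adjusted p of Klf6 ran between 1.73e-05 and 0.00124. In the LSK contrast leave-one-out fits called 332 to 760 genes, with Klf6 at 1.54 to 1.69; the share higher in LSK cells was 111 of 509, against 191 of 483 (TMM) and 263 of 486 (RLE). No paired analysis was possible because the numbers in the column names count up over all libraries and none recurs in another group.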
